A study of Mus musculus with 8 samples.

Results

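The respiratory chain and ATP synthase, complexes I to V of the mitochondrial inner membrane, were described across 8 mouse liver arrays, 4 from wild-type mice (WT) and 4 from mice lacking SIRT7 (SIRT7 KO). Members were taken by name, as every gene symbol starting with Nduf (complex I and its assembly factors), Sdha to Sdhd (complex II), Uqcr (complex III), Cox4 to Cox8 (complex IV) or Atp5 (complex V), provided that a probe set was annotated to that symbol alone. This gave 84 of the 12393 genes on the table, measured by 156 probe sets. Of these genes 39 belong to complex I, 4 to complex II, 8 to complex III, 16 to complex IV and 17 to complex V. Each gene was followed through its brightest probe set (by the mean of the 8 arrays), and values are log2 expression. A further 8 probe sets, for example that shared by Ndufs6 and its copy Ndufs6b, carry several symbols and were left out. Subunits under other symbols are not among the members, and those encoded by mitochondrial DNA are not analysed here. The complex III subunit Cyc1 (cytochrome c1) appears below on the list of assembly factors and electron carriers.

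Complex I passes electrons from NADH, and complex II those from succinate, to ubiquinone. Complex III hands them on to cytochrome c, complex IV to oxygen, and the protons pumped along the way drive ATP synthesis by complex V. Hepatocytes are rich in mitochondria and need this ATP for gluconeogenesis, urea synthesis and protein secretion. SIRT7 is a nuclear NAD+-dependent deacetylase whose known partners include GABP, a regulator of nuclear genes for mitochondrial proteins, and NRF1, another regulator of such genes.

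Each array was run from liver total RNA and was taken as a single mouse. The labels used here give tissue, genotype and replicate number, and do not say whether samples were pooled. The knockout animals come from a SIRT7-deficient line described earlier. The sources used here do not give the age, sex, strain or diet of these animals or whether arrays shared a run, and p-values therefore measure only the spread between these samples. Sirt7 itself was between 8.57 and 8.98 in the WT arrays and between 4.40 and 4.90 in the SIRT7 KO arrays (-4.21 ± 0.13 SE, limma adjusted p = 9.2e-07). The mean of 7 hepatocyte markers was between 14.37 and 14.43 in WT and between 14.28 and 14.33 in SIRT7 KO, so that the genotypes did not overlap. All 7 markers lay below 0 (median -0.14) and none passed the test. The Gapdh control probe sets of the 3′ end exceeded those of the 5′ end by 0.22 ± 0.055 in WT and 0.11 ± 0.082 in SIRT7 KO (SD, n = 4). The part of both in the results was not tested. The second principal component of all probe sets set WT array 4 (-10.7) and SIRT7 KO arrays 3 (-24.4) and 4 (-19.5) apart from the other 5 arrays (1.52 to 19.1). In RNA from whole liver, fewer cells of a type and less RNA per cell cannot be told apart.

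No respiratory chain gene passed the test. Limma called 0 of the 84 genes and 0 of the 156 probe sets at an adjusted p under 0.15, the threshold that the methods of the study set, whereas 4.65% of all genes (576 of 12393) and 4.31% of all probe sets were called. At an adjusted p under 0.05 it called 0 members and 0.758% of all genes. At an unadjusted p under 0.05 there were 3 of 84 members (Cox6b2, Sdhd and Cox7a2) against 15.6% of all genes, and 8 of the 156 probe sets. The genotypes were fully separated, with no overlap of their arrays, for 4 members (Sdhd, Cox7a2, Atp5pb and Ndufaf1) against 9.8% of all genes. Differences are given throughout in log2 units, as SIRT7 KO minus WT, and were above 0 for 45 members and below 0 for 39.

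The differences of the members were small. Their median was 0.0097, beside -0.0031 over all genes, and the median size regardless of sign was 0.070 against 0.096. A size under 0.15 was found for 76 of the 84 members (90.5%) and for 68.1% of all genes. The 95% interval of the difference stayed within 1.2-fold in either direction for 46 members and within 1.5-fold for 82, the exceptions being Cox6b2 and Cox7a1. The probe sets of the members were bright, with a median of 12.14 against 6.85 for all genes. Among all genes above the median brightness, members included, the median size was 0.12 and 60.3% lay under 0.15. Among the 772 genes with a mean of at least 11.35, the lower quartile of the members, the median size was 0.11, 62.8% lay under 0.15 and 7.64% were called (63 of the 772 are themselves members). The part of brightness in the small differences was not tested.

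**Figure D1:**
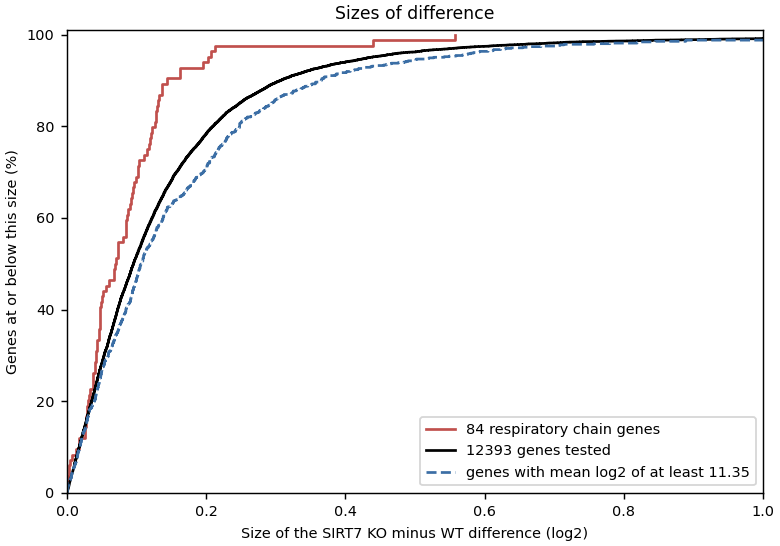
Cumulative share of genes (y axis, percent) at or below a given size of the SIRT7 KO minus WT difference (x axis, log2, drawn to 1) for the 84 respiratory chain genes, all 12393 genes and the 772 genes with a mean log2 value of at least 11.35. The curve of the members rises fastest, with 90.5% of them under 0.15 against 68.1% of all genes.

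By complex, the median difference was -0.0072 for complex I, 0.058 for complex II, 0.045 for complex III, 0.056 for complex IV and 0.033 for complex V. These medians are a description, since no member of any complex passed the test, and single arrays moved them by more than 1.5 times. Leaving out each array in turn, they ran from -0.053 to 0.014 for complex I, 0.0089 to 0.11 for II, 0.0033 to 0.089 for III, 0.0052 to 0.081 for IV and 0.0086 to 0.066 for V. Without WT array 4 and SIRT7 KO arrays 3 and 4 they were 0.041, 0.072, 0.14, 0.12 and 0.081 in the same order. Over all 84 genes those SIRT7 KO arrays were the lowest of their group, and the set was chosen after seeing the data. The mean over the 84 genes on each array averaged 11.52 ± 0.065 in the WT group and 11.54 ± 0.083 in the SIRT7 KO group (SD, n = 4 each).

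**Figure D2:**
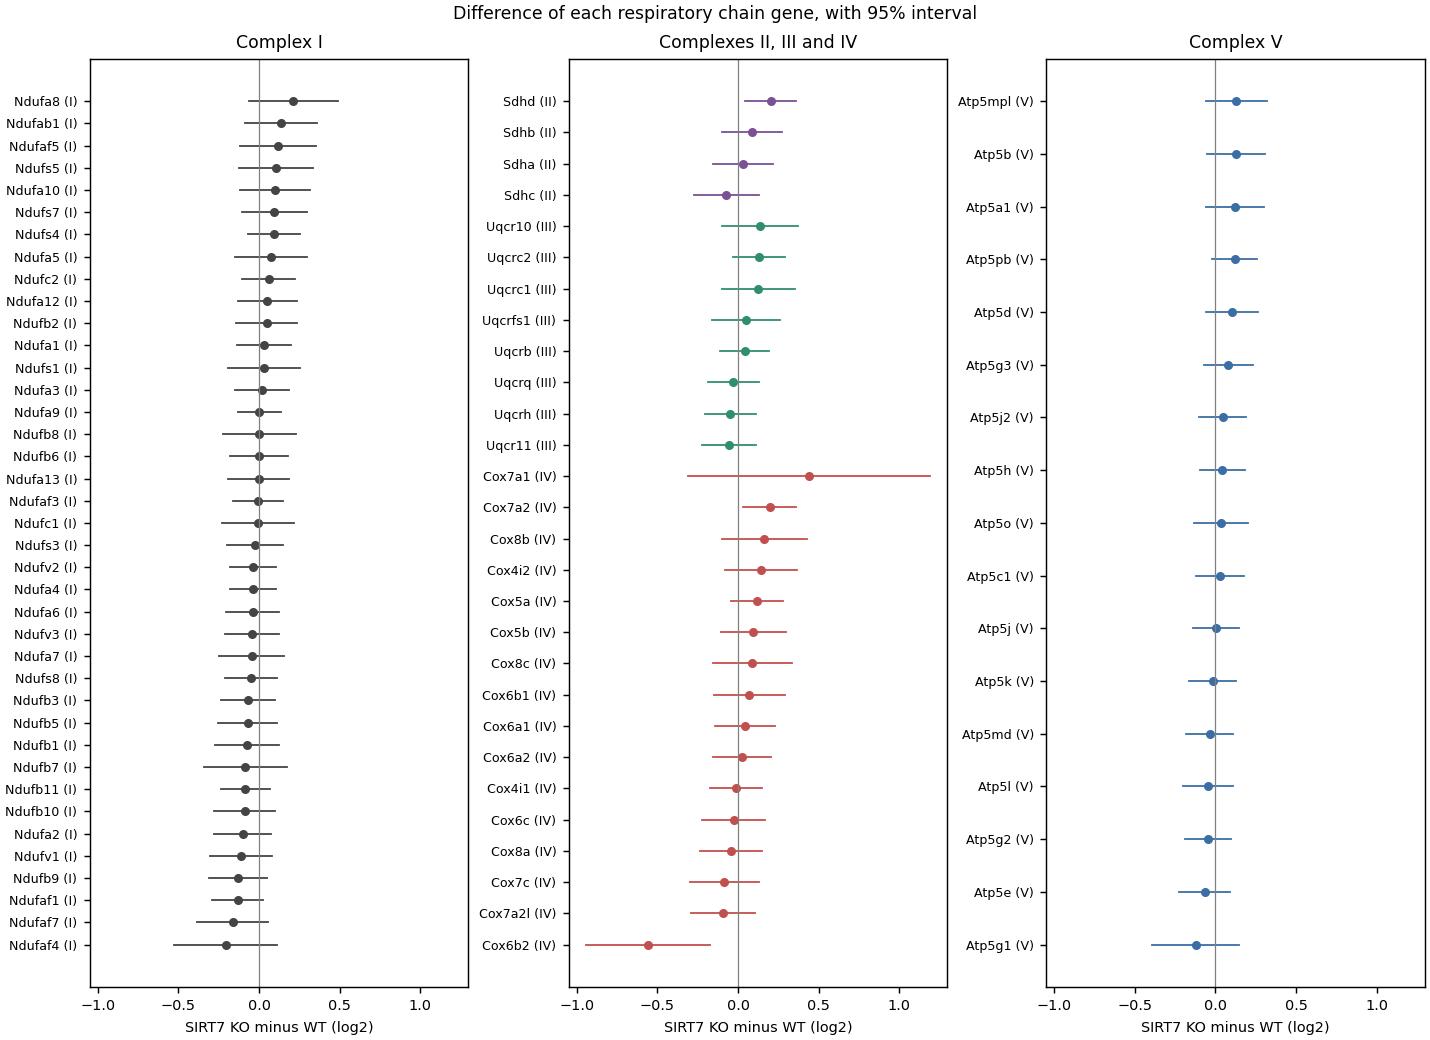
SIRT7 KO minus WT difference (x axis, log2) of each of the 84 genes, with complex I on the left, complexes II to IV in the middle and complex V on the right. Points are limma estimates from 4 against 4 arrays, lines their 95% intervals, and the roman numeral beside each symbol (y axis) is its complex. Most intervals span 0, and those of Cox6b2 and Cox7a1 are the widest.

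Complex I, counted here with its assembly factors and Ndufa4, was the only complex with more differences below 0 (23) than above (16). Its 13 alpha subunits had a median difference of 0.017, from -0.10 for Ndufa2 to 0.21 for Ndufa8. Ndufa8, an intermembrane space subunit, read 11.41, 11.40, 11.85 and 11.54 in WT and 12.02, 11.70, 11.61 and 11.72 in SIRT7 KO. The groups overlapped, because WT array 3 exceeded 3 of the SIRT7 KO arrays, and the difference of 0.21 ± 0.12 SE did not pass (adjusted p = 0.479). Ndufa4, which is now assigned to complex IV in spite of its name, differed by -0.037 ± 0.062 SE (adjusted p = 0.843).

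The 12 beta and c subunits, which belong to the membrane arm of complex I, had a median of -0.069, and 9 of the 12 lay below 0. Ndufb9 was the lowest of them at 13.12, 12.98, 13.11 and 13.07 in WT and 13.08, 13.01, 12.87 and 12.80 in SIRT7 KO. SIRT7 KO arrays 3 and 4 lay below all WT arrays and arrays 1 and 2 within their range, with a difference of -0.13 ± 0.079 SE (adjusted p = 0.508). Of this group the largest above 0 was Ndufc2 (0.060 ± 0.074 SE).

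The catalytic core, which holds the flavin, the iron-sulfur clusters and the ubiquinone site, was represented by 6 genes with a median of -0.031. Ndufv1, which binds NADH, read 12.31, 12.15, 12.36 and 12.28 in WT and 12.30, 12.25, 12.11 and 11.99 in SIRT7 KO. Again the 2 lowest values were those of SIRT7 KO arrays 4 and 3 (-0.11 ± 0.085 SE, adjusted p = 0.611). Without the 3 arrays set apart by the second component its difference was 0.0037. Ndufs1, the largest iron-sulfur subunit, differed by 0.029 ± 0.099 SE (95% interval -0.19 to 0.25).

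The 5 assembly factors are not part of the finished complex, and 4 of them lay below 0, with a median of -0.13. Ndufaf1, which takes part in building the membrane arm, read 9.76, 9.69, 9.69 and 9.83 in WT and 9.68, 9.67, 9.59 and 9.49 in SIRT7 KO. All 4 SIRT7 KO values were below the lowest WT value, arrays 1 and 2 only just, and limma did not call it (-0.13 ± 0.070 SE, adjusted p = 0.436). Ndufaf7, a methyltransferase that modifies a core subunit, overlapped between the groups (-0.16 ± 0.098 SE, adjusted p = 0.496). Ndufaf4 had the lowest difference in complex I (-0.21) together with a wide spread, from 10.08 to 10.62 in WT and from 9.86 to 10.27 in SIRT7 KO (adjusted p = 0.563).

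Complex II, or succinate dehydrogenase, also belongs to the TCA cycle. Its membrane anchor Sdhd, which with Sdhc carries the haem and the ubiquinone site, read 11.86, 11.73, 11.92 and 11.82 in WT and 12.15, 11.97, 12.02 and 12.00 in SIRT7 KO. Every SIRT7 KO array lay above every WT array. The difference was 0.20 ± 0.070 SE, or 1.15-fold (95% interval 1.03 to 1.28), and it missed the threshold (adjusted p = 0.223). A further probe set of Sdhd read 9.71, 9.49, 9.56 and 9.63 in WT and 9.94, 9.84, 9.77 and 9.79 in SIRT7 KO. It too separated the groups and missed the threshold (0.24 ± 0.073 SE, adjusted p = 0.172).

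The other subunits of complex II did not share that separation. The flavoprotein Sdha differed by 0.031 ± 0.082 SE and the iron-sulfur protein Sdhb by 0.085 ± 0.083 SE (adjusted p = 0.905 and 0.700). Sdhc, the second anchor, read 10.72, 10.35, 10.64 and 10.46 in WT and 10.47, 10.51, 10.51 and 10.40 in SIRT7 KO, all SIRT7 KO values within the WT range (-0.073 ± 0.089 SE, adjusted p = 0.770). The probe set of Sdhc with the smallest p lay on the opposite side of 0 (0.075).

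In complex III, all 3 core genes among the members lay above 0, with a median of 0.13, and none passed. Uqcrc2, a core protein of the matrix arm, read 12.40, 12.22, 12.20 and 12.31 in WT and 12.46, 12.49, 12.33 and 12.37 in SIRT7 KO. Only the 2 higher SIRT7 KO arrays exceeded all WT arrays (0.13 ± 0.072 SE, adjusted p = 0.449). Its partner Uqcrc1 differed by 0.13 ± 0.10 SE and the Rieske iron-sulfur protein Uqcrfs1 by 0.047 ± 0.094 SE (adjusted p = 0.621 and 0.866). The 5 small subunits had a median of -0.029, with Uqcr11 at -0.055 ± 0.075 SE and Uqcr10 at 0.14 ± 0.11 SE as the lowest and highest. Without the 3 arrays set apart by the second component Uqcr11 was at 0.027.

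Complex IV held the widest range. Among its 9 widely expressed subunits the median was 0.042, and Cox7a2 came closest to the threshold. Cox7a2, the isoform of subunit VIIa that liver uses, read 13.35, 13.23, 13.32 and 13.40 in WT and 13.47, 13.66, 13.49 and 13.46 in SIRT7 KO. The groups did not overlap, although the gap between the nearest arrays was small beside the step to SIRT7 KO array 2. The difference was 0.20 ± 0.072 SE, or 1.15-fold (95% interval 1.02 to 1.28), with an adjusted p of 0.248. Its other probe set read 12.67, 12.62, 12.60 and 12.78 in WT and 12.86, 12.97, 12.89 and 12.87 in SIRT7 KO, again without overlap (0.23 ± 0.066 SE, adjusted p = 0.155).

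The remaining widely expressed subunits lay nearer to 0. Cox5a and Cox5b, which surround the catalytic subunits, differed by 0.11 ± 0.072 SE and 0.096 ± 0.090 SE. Cox4i1, the ubiquitous isoform of subunit IV, differed by -0.013 ± 0.073 SE (95% interval -0.18 to 0.15). Cox6a1 and Cox6b1 were at 0.042 ± 0.082 SE and 0.070 ± 0.098 SE, and Cox8a was at -0.042 ± 0.086 SE. Cox7a2l, which joins complexes III and IV in supercomplexes, differed by -0.094 ± 0.087 SE. None of these 7 had an adjusted p below 0.516. Without the 3 arrays set apart by the second component Cox4i1 was at 0.10 and Cox8a at 0.058, and the dimmer probe set of Cox6b1 gave -0.025.

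The 6 tissue-restricted isoforms had a median SE of 0.11, beside 0.080 over all members. Cox7a1 and Cox6b2 had the widest intervals of all members, while the SE of Cox6a2 (0.080) was near that median. Cox6b2, best known from testis, had the largest difference of all members. It read 6.41, 6.16, 5.90 and 6.33 in WT and 5.35, 5.59, 6.12 and 5.51 in SIRT7 KO. SIRT7 KO array 3 lay inside the WT range and the other 3 below it, for a difference of -0.56 ± 0.17 SE (adjusted p = 0.172). The level was under 6.35, the median of all probe sets, on 7 of the 8 arrays, so that background bounds the difference. Leaving out SIRT7 KO array 3 brought Cox6b2 past the threshold (-0.72, adjusted p = 0.0734), as did leaving out WT array 3 (-0.66, adjusted p = 0.149) and weighting arrays by quality (adjusted p = 0.136). Cox6b2 passed only in these 3 of 16 alternative settings (adjusted p of 0.0734 to 0.345). The mean of 3 testis and sperm markers was between 5.37 and 5.56 in WT and between 5.14 and 5.42 in SIRT7 KO, and its part in the result was not tested.

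Cox7a1, the heart and muscle isoform of subunit VIIa, read 5.82, 5.06, 5.95 and 4.71 in WT and 6.0, 6.53, 5.51 and 5.27 in SIRT7 KO. Its SD was 0.60 in WT and 0.56 in SIRT7 KO, the arrays of both groups were intermingled, and the difference of 0.44 ± 0.33 SE had a 95% interval from -0.31 to 1.19. The means of Cox7a1 (5.39 in WT and 5.83 in SIRT7 KO) lay under 6.35, so that background bounds this difference too. Skeletal muscle markers (7 genes) had means between 4.65 and 4.78 on all arrays, and 3 fat markers between 3.94 and 4.09. Of these markers 3 of the 7 and all 3 had means under the lower quartile (4.56) of the probe sets tested, and their part in the spread of Cox7a1 was not tested. Cox8b, also of heart, muscle and brown fat, lay at 4.54 ± 0.26 in WT and 4.70 ± 0.038 in SIRT7 KO (SD, n = 4), near that quartile. The lung isoform Cox4i2, also under 6.35 (means of 4.79 in WT and 4.93 in SIRT7 KO), differed by 0.14 ± 0.10 SE. The heart and muscle isoform Cox6a2 differed by 0.026 ± 0.080 SE and the testis isoform Cox8c by 0.088 ± 0.11 SE.

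**Figure D3:**
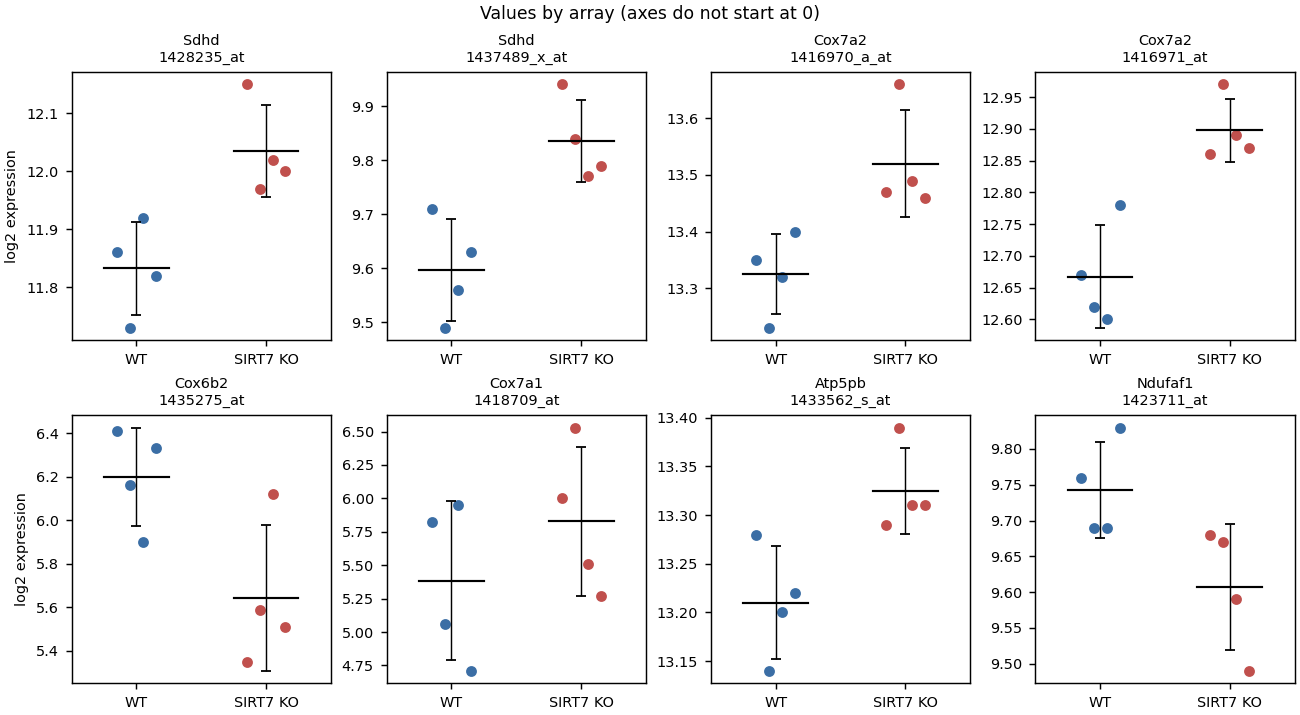
Log2 expression (y axis, a range of its own in each panel, not starting at 0) on the 4 WT (blue) and 4 SIRT7 KO (red) arrays for the 2 probe sets of Sdhd and of Cox7a2 and for Cox6b2, Cox7a1, Atp5pb and Ndufaf1. Points are arrays, horizontal lines group means and error bars SD (n = 4). The groups are apart in the panels of Sdhd, Cox7a2, Atp5pb and Ndufaf1 and overlap in those of Cox6b2 and Cox7a1.

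Complex V had the smallest median size of difference (0.047), and its genes ran from -0.12 for Atp5g1, which encodes the c subunit of the rotating ring, to 0.13 for Atp5mpl and Atp5b. Of its 5 genes for the catalytic head and central stalk 4 lay above 0, with a median of 0.10. Atp5b, the catalytic beta subunit, read 13.19, 12.92, 13.16 and 13.11 in WT and 13.25, 13.29, 13.24 and 13.11 in SIRT7 KO. SIRT7 KO arrays 1 to 3 were above all WT arrays, and array 4 lay within the WT range (0.13 ± 0.079 SE, adjusted p = 0.514). The alpha subunit Atp5a1 differed by 0.12 ± 0.081 SE (adjusted p = 0.548).

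All 4 genes of the peripheral stalk, which holds the head still against the turning rotor, lay above 0, with a median of 0.037. Atp5pb, its main membrane-anchored subunit, read 13.28, 13.14, 13.20 and 13.22 in WT and 13.29, 13.39, 13.31 and 13.31 in SIRT7 KO. The groups did not overlap, WT array 1 and SIRT7 KO array 1 being all but equal (0.12 ± 0.062 SE, adjusted p = 0.420). The 5 small membrane subunits had a median of -0.017 and the 3 c ring genes one of -0.047. Intervals within 1.2-fold were reached by 12 of the 17 genes of complex V and by 5 of the 16 genes of complex IV.

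The members varied together between arrays of the same genotype. WT array 2 gave the lowest WT value for 61 of the 84 genes, and SIRT7 KO array 4 the lowest SIRT7 KO value for 57. SIRT7 KO array 1 was the highest of its group for 45 genes and WT array 3 for 37. The median deviation of the 84 genes from their own means was 0.039, -0.10, 0.035 and -0.018 on WT arrays 1 to 4 and 0.086, 0.055, -0.024 and -0.10 on SIRT7 KO arrays 1 to 4. The step between arrays of 1 genotype was thus larger than the median difference between genotypes in each complex. Over all genes the same median stayed between -0.016 and 0.017.

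All 5 complexes were low on WT array 2 (-0.18 to -0.081) and SIRT7 KO array 4 (-0.12 to -0.049). Complex II departed from the rest on WT array 4, where it was at -0.098, and on SIRT7 KO array 3, where it was at 0.065 and the other 4 complexes were between -0.051 and -0.0082. The mean of 8 macrophage markers was 9.01, 9.92, 9.27 and 8.91 on WT arrays 1 to 4 and 9.25, 9.19, 10.07 and 9.80 on SIRT7 KO arrays 1 to 4. It was thus highest on WT array 2 and SIRT7 KO arrays 3 and 4, the arrays on which complexes I and IV were lowest, while complexes III and V were lower on WT array 4 than on SIRT7 KO array 3. The part of these markers in the result was not tested. None of the 8 markers passed the test between genotypes, and all 8 differences were above 0.

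Without WT array 4 and SIRT7 KO arrays 3 and 4, the median difference of the members was 0.079, beside -0.0011 over all genes. This set leaves out the SIRT7 KO arrays on which the members were lowest (median deviation -0.024 and -0.10). It keeps WT array 2 (-0.10), the lowest of the WT arrays, so a rise comes with that choice of arrays. Limma called 0 of the 84 genes in that comparison of 3 against 2 arrays.

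**Figure D4:**
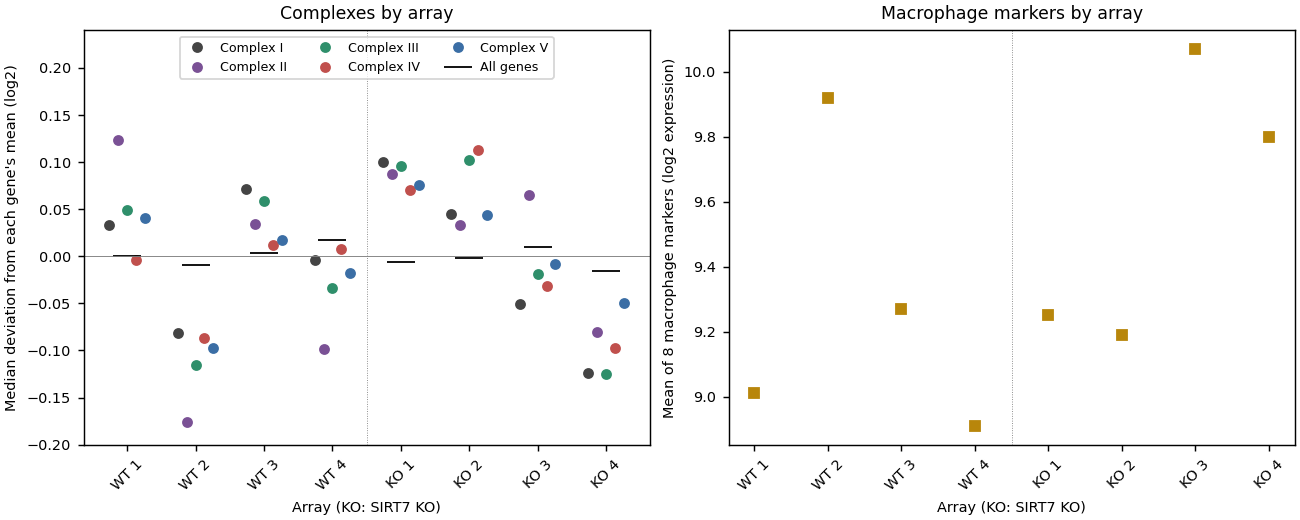
Left, median deviation of the genes of each complex from their own means over the 8 arrays (y axis, log2) on each array (x axis), with black bars for all 12393 genes. Right, mean log2 expression of 8 macrophage markers on the same arrays (the y axis does not start at 0). All 5 complexes are low on WT array 2 and SIRT7 KO array 4, and the marker mean is at least 9.80 on these and on SIRT7 KO array 3.

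Most genes with several probe sets gave 1 direction. Of the 45 members with more than 1 probe set, 33 had the same sign in all of them and 12 did not. Uqcr10 was above 0 in each of its 3 probe sets (0.14, 0.26 and 0.17). For Ndufa7, 4 probe sets lay between -0.052 and -0.030 and the dimmest at -0.22, without a call. Cox7c and Ndufb1 are measured here by probe sets of a mean under 6.35 (6.28 and 6.13 in WT), so that their differences of -0.086 and -0.073 are bounded by background as well.

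Binding sequences of regulators of the chain were looked up in the RefSeq promoters of mouse build GRCm38.p6, 250 bases before to 50 after each start, which were at hand for 70 of the 84 genes (75 promoters). The NRF1 palindrome GCGCATGCGC occurred in 6 of the 75 (8.0%), beside 0.971% of all 32851 promoters and 1.6% of those of genes on the arrays. The YY1 core AAGATGGCG was in 6 (8.0%), beside 1.4% of all promoters and 2.31% of those of array genes. The ETS sequence CCGGAAGT, to which GABP binds, was in 5 (6.67%), beside 3.89% of all promoters and 6.31% of those of array genes. Both strands were searched, and no member held more than 1 of the 3 sequences. A match describes these letters and is not a binding site measured in liver.

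The 4 NRF1 matches that lie before the start are printed here because SIRT7 is known to act with NRF1, and the palindrome is in capitals, with up to 25 bases on either side, 5′ to 3′ on the strand of the gene.
Atp5g2, chr15:102671055-102671114, minus strand: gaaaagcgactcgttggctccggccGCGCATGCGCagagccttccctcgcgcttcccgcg
Atp5k, chr5:108434415-108434474, minus strand: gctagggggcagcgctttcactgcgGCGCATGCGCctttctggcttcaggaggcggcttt
Cox6a1, chr5:115349086-115349145, minus strand: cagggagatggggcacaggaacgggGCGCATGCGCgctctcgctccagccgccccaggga
Ndufaf4, chr4:24897945-24898004, plus strand: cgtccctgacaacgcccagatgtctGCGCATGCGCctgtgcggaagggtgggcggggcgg
The palindrome begins 42 bases before the start of Atp5g2, 50 before that of Atp5k, 162 before that of Cox6a1 and 113 before that of Ndufaf4.

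The differences of these genes lay on both sides of 0. Atp5g2, a c subunit gene, differed by -0.047 ± 0.063 SE, the membrane subunit gene Atp5k by -0.017 ± 0.066 SE, Cox6a1 by 0.042 ± 0.082 SE and Ndufaf4 by -0.21 ± 0.14 SE. Over the 6 genes with the palindrome the median was 0.013, and over the 64 without it 0.0025. The 5 genes with the ETS sequence (Atp5h, Cox8a, Ndufs3, Uqcr11 and Uqcrh) had a median of -0.042, beside 0.017 for the 65 without it. The 6 with the YY1 core (Atp5j, Atp5j2, Ndufa9, Ndufc1, Ndufs4 and Ndufs7) had a median of 0.024, beside 0.00086 for the 64 without it. Over all array genes with a match the median was -0.0403 for the NRF1 palindrome, -0.0256 for the ETS sequence and -0.0195 for the YY1 core.

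Other genes of the same pathway were drawn from lists by function, to set beside the subunits. Of 25 regulators of mitochondrial gene expression, 0 were called higher and 1 lower, against 2.17% and 2.48% of all genes, and 19 lay below 0 (median -0.062). The 1 that fell was Pprc1, a coactivator of the PGC-1 family, which read 7.39, 7.49, 7.72 and 7.56 in WT and 7.15, 7.15, 6.99 and 7.31 in SIRT7 KO (-0.39 ± 0.094 SE, adjusted p = 0.0994). The groups did not overlap, and the call survived the loss of array 4 of either genotype but of no other array (adjusted p up to 0.190, difference -0.45 to -0.33). The better known regulators did not pass. Ppargc1a differed by -0.043, Nrf1 by -0.12, the GABP subunits Gabpa and Gabpb1 by -0.13 and -0.12, Esrra by -0.062 and Tfam, which packages mitochondrial DNA, by -0.073.

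Of 42 assembly factors and electron carriers outside the members, 1 was called higher and 0 lower, against 2.17% and 2.48% of all genes (median -0.0064). The list includes Cyc1, the cytochrome c1 subunit of complex III (0.044 ± 0.090 SE, adjusted p = 0.871). Atpif1, the inhibitor that stops complex V from running backwards, rose from 9.15, 9.16, 9.34 and 9.15 in WT to 9.64, 9.82, 9.51 and 9.44 in SIRT7 KO (0.41 ± 0.094 SE, adjusted p = 0.0904). Every SIRT7 KO array was above every WT array, while the call was lost when array 1 or 2 of either genotype was left out (adjusted p up to 0.219, difference at least 0.33). Next by p came Uqcc3, an assembly factor of complex III, whose SIRT7 KO arrays all lay below the WT arrays (-0.27 ± 0.077 SE, adjusted p = 0.151). Cox19 followed, with overlap between the groups (0.45 ± 0.14 SE, adjusted p = 0.181). Cytochrome c itself, Cycs, lay above WT without overlap (0.34 ± 0.11 SE, adjusted p = 0.183), and Acad9, an assembly factor of complex I, below WT without overlap (-0.31 ± 0.10 SE, adjusted p = 0.198). Uqcc3, Cox19, Cycs and Acad9 did not pass. Of the 42 genes 4 were fully separated, against 9.8% of all genes.

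The TCA cycle list lay almost wholly above 0 without a call. It also holds genes of enzymes beside the cycle, namely pyruvate dehydrogenase (Pdha1, Pdhb and Dlat) and pyruvate carboxylase (Pcx). These differed by 0.264, 0.0525, 0.207 and 0.168, and none passed. Of all 17 genes on the list, 0 passed, 16 were above 0 and the median was 0.18. Citrate synthase, Cs, differed by 0.50 ± 0.17 SE and the isocitrate dehydrogenase Idh2 by 0.43 ± 0.16 SE (adjusted p = 0.211 and 0.235). At an unadjusted p under 0.05 there were 4 of the 17, against 15.6% of all genes. Of 27 carriers and membrane proteins, 0 passed, 1 was under an unadjusted p of 0.05 (Mfn2, a mitochondrial fusion protein, 0.23 ± 0.071 SE, adjusted p = 0.167), again against 15.6%, and the median was 0.031. The adenine nucleotide carrier Slc25a5 was second by p (0.14 ± 0.074 SE, adjusted p = 0.416). Of 9 antioxidant enzymes 1 was called higher, against 2.17% of all genes, namely Gpx4, which reduces lipid peroxides (0.41 ± 0.10 SE, adjusted p = 0.111), and that call survived the loss of SIRT7 KO array 3 or 4 but of no other array (adjusted p up to 0.230, difference at least 0.345).

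**Figure D5:**
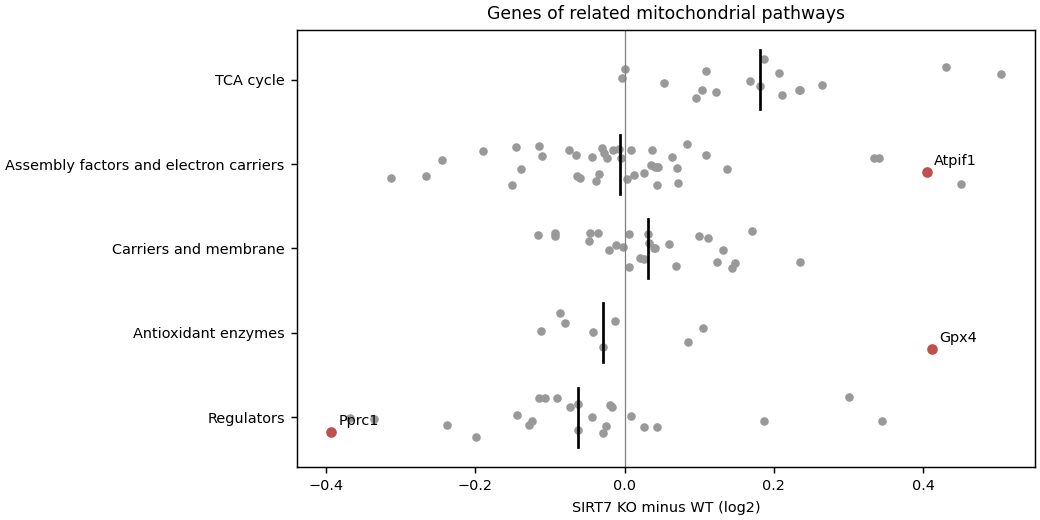
SIRT7 KO minus WT difference (x axis, log2) of each gene on 5 lists of related mitochondrial genes (y axis), with black bars at the median of each list and red points for genes with an adjusted p under 0.15. The called genes are Atpif1, Gpx4 and Pprc1. On the TCA cycle list, which includes pyruvate dehydrogenase and pyruvate carboxylase genes, 16 of the 17 genes lie above 0.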

How the data were processed

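Total RNA from the livers of 4 WT and 4 SIRT7 KO mice was the starting material for Affymetrix mouse arrays, 1 per sample, with biotin as the label. Groups were taken from the sample labels. The table deposited by the authors gives log2 values per probe set and array. Background correction, normalization between arrays and summarising of probes came before deposit, by RMA according to the paper's methods and by GCRMA according to the submitters' processing notes. Which of these made the values is unknown, and they treat background differently, which bears most on dim probe sets. The sources used here give no software version.

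Of 22690 probe sets 64 controls were left out, and 22626 were tested as deposited, without a filter. Array medians lay between 6.30 and 6.36. Names came from the platform annotation, in which 20380 probe sets had a single symbol, 691 several and 1555 none. The genotypes were compared by limma 3.58.1 in R 4.3.3 (lmFit and eBayes, two-sided, with no term but genotype), and p-values were adjusted by Benjamini-Hochberg over every tested probe set, with a threshold of 0.15. Summaries and the search of promoters, by symbol and gene ID, used Python 3.11.15 and pandas 2.3.3. The model was tested on simulated data. A probe set below the median of all probe set means, 6.35, was treated as near background. The number of arrays limits the precision.

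The members and gene lists were chosen with earlier results of these data known. In each complex the text names the genes with the smallest p, fixed subunits (among them the catalytic ones) and all isoforms restricted to other tissues. In each list it names called genes or otherwise the 2 with the smallest p, and the best known regulators. Other genes, among them Uqcc3, Cox19, Cycs and Acad9, were named after their values were seen, as extremes or separated genes of a group, as partners of a named gene or for a match to a motif. Cyc1, Pdha1, Pdhb, Dlat and Pcx were named for their function, to show what their lists hold. Alternatives were a threshold of 0.05, eBayes with trend and robust variance, array weights, a further quantile normalization, centring of arrays, a filter on brightness, other probe sets of a gene, the replicate number as a block and leaving out each array. The comparison without WT array 4 and SIRT7 KO arrays 3 and 4, the 1.2-fold limit for intervals and the set of bright genes were chosen after seeing the data, and the YY1 core was shortened after matches of a longer form had been seen.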

Additional observations from a re-analysis of the deposited data

Results flagged for a closer look

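Of 60 groups of 4 arrays examined for single values far from the rest (30 named genes in each genotype), 3 held one, and chance marks about 1 group in 20. Sdha read 12.35 on SIRT7 KO array 4, with the other SIRT7 KO arrays between 12.48 and 12.51. Cox7a2 read 13.66 on SIRT7 KO array 2, with the others between 13.46 and 13.49. Cox8b read 4.64 on SIRT7 KO array 1, with the others between 4.71 and 4.72, a level near the lower quartile of all probe sets.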

How the results depend on the processing

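The count of respiratory chain genes called stayed at 0 except with array quality weights (1, Cox6b2), among probe sets above the median brightness (1, Sdhd, adjusted p = 0.146, where 12.2% of all genes were called) and without SIRT7 KO array 3 or WT array 3 (1 each, Cox6b2), a range of 0 to 1 over the arrays left out in turn. For the weighted fit and the fits without single arrays the share of all genes called is not given here, so these counts lack a background. Replicate numbers did not pair the arrays (correlations of same-numbered arrays 0.255, -0.252, -0.163 and 0.145), and with the replicate block 0 members and 2.97% of all genes (368) were called. Across numbers, WT arrays 1 and 3 correlated positively with SIRT7 KO arrays 1 and 2, and WT arrays 2 and 4 with SIRT7 KO arrays 3 and 4 (0.023 to 0.31). The remaining pairs were negative (-0.44 to -0.055), and the source of this grouping was not tested. Cox7a2 passed in 0 of 17 settings (adjusted p of 0.155 to 0.433).

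Without WT array 4 and SIRT7 KO arrays 3 and 4, the medians of complexes III and IV were 0.141 and 0.124, and Uqcr11 (0.027), Ndufv1 (0.0037), Cox4i1 (0.10) and Cox8a (0.058) lay above 0. The probe set of Sdhc with the smallest p gave 0.075. Leaving out each array in turn, the difference crossed 0 for Cox4i1 (-0.055 to 0.026), Cox6a2 (-0.016 to 0.067), Cox8a (-0.10 to 0.0071), Ndufs1 (-0.042 to 0.084), Sdha (-0.017 to 0.086) and Uqcrfs1 (-0.016 to 0.11), the median of all members ran from -0.015 to 0.042 and that of complex I from -0.053 to 0.014. The cause was not tested. At a false discovery rate of 0.05, 0 assembly, regulator and antioxidant genes were called, and without single arrays 0 to 3, 0 to 2 and 0 to 1 were, again without the share of all genes beside them. Of the 30 members that the naming rule gave, the others kept their direction in these alternatives, although the dimmer probe set of Cox6b1 lay below 0 (-0.025). Members named for other reasons were not rerun one by one. Differences of probe sets near background are limited by signal, not by spread alone.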
